A study of Homo sapiens with 6 samples.

Results

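The genes of cholesterol synthesis and sterol regulation were examined in RKO, a human colon carcinoma line of poor differentiation, after knockdown of TRIM21, an E3 ubiquitin ligase. The set holds 30 genes, taken by their symbols from 28278 counted rows: 7 of the mevalonate steps, 11 of the sterol steps, 7 that sense sterols or regulate SREBP, and 5 of uptake, trafficking and esterification. The shTRIM21 group (n = 3) stably carried a short hairpin RNA against TRIM21 and the shControl group (n = 3) a scrambled hairpin. Both were delivered by lentivirus and selected with puromycin, and RNA was sequenced after ribosomal RNA depletion. The labels name 1 hairpin construct for each arm and describe no clones. The labels call the 3 libraries of a group biological replicates without naming separate infections, so p-values measure the spread between these libraries, which may be technical.

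Cells build cholesterol from acetyl-CoA through mevalonate and the isoprenoid farnesyl diphosphate, which is joined to squalene, closed to lanosterol and then trimmed to cholesterol. When sterols in the endoplasmic reticulum run low, SCAP escorts the SREBP transcription factors to the Golgi for cleavage, and they switch on the enzymes of synthesis and the receptors of uptake. INSIG proteins hold SCAP back when sterols are plentiful, and the oxysterol-activated LXR receptors promote the removal of cholesterol. In gut epithelium the route supplies membranes and prenylated proteins.

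TRIM21 was counted at 299, 271 and 297 in the shTRIM21 libraries and at 459, 421 and 343 in the shControl libraries. It fell by 0.54 on the log2 scale (SE 0.12, edgeR quasi-likelihood adjusted p = 0.00424), or from 11.0 to 7.58 CPM, which is the count of a gene as a share of the scaled library total. With library sizes alone the difference was -0.34 and not called (adjusted p = 0.197). Libraries held 33499827 to 44466137 counts, and 27808151 to 29100459 without ribosomal RNA rows, which took 31.0% and 36.9% in shControl replicates 1 and 3 and between 14.7% and 23.5% in the others. The summed level of 5 epithelial markers was 4604 to 4847 CPM in shTRIM21 and 5936 to 6602 CPM in shControl, and its part in the results was not tested. The keratin genes KRT8 (-0.44), KRT18 (-0.46) and KRT19 (-0.38), which make up most of that sum, fell, while CDH1 rose by 0.57 (log2, edgeR adjusted p = 3.31e-05) and EPCAM was not called (0.13). The fibroblast markers summed to 10.4 to 11.0 CPM against 6.15 to 9.19 CPM with DCN at 0, the immune markers to 5.79 to 6.66 CPM against 7.09 to 8.13 CPM with CD3E at 0, and the endothelial markers to under 1 CPM in every library with CDH5 at 0.

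Of the 30 genes 29 passed the filter on low counts. Of these 12 fell (adjusted p under 0.05 over all genes tested, edgeR), 3 rose and 14 were not called. Over all 15131 genes tested, 11.0% fell, 9.77% rose and 20.8% changed in either direction. The log2 difference was negative for 23 of the 29 and positive for 6, and their median was -0.17, beside 0.0054 over all genes tested. The libraries of the groups did not overlap for 16 of the 29, beside 37.7% of all genes. Differences were modest: they ran from -0.45 for NR1H2 to 0.44 for TM7SF2.

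The fall ran through the mevalonate steps, where 5 of 7 genes fell and 0 rose (median -0.22). Among 10 tested sterol-step genes 3 fell and 2 rose (median -0.11). The regulators had 3 of 7 lower and 0 higher (median -0.18), and of the 5 uptake and trafficking genes 1 fell and 1 rose (median -0.04). With scaled libraries 0 genes of the mevalonate and regulator groups were higher at an unadjusted p under 0.05 either, by edgeR or DESeq2, and with library sizes alone 1 mevalonate gene was. The lower calls depend on the scaling of libraries. Unscaled library sizes include the ribosomal RNA rows, which took between 14.7% and 36.9% of a library. With library sizes alone, which shift the median of all genes to 0.22 and make 93.0% of all calls higher ones, 0 of the 29 were called lower by edgeR, 0 also at an unadjusted p under 0.05, and TM7SF2 and MYLIP were higher. The median of the 29 then was 0.044, which is 0.17 below the median of all genes, the same distance as with scaled libraries. A change of scaling shifts all genes by nearly the same amount, so this distance could hardly change and does not bear on the calls. With upper-quartile factors, where 62.1% of all calls are higher ones against 47.0% in the scaling used here, 5 were lower and 3 higher. Leaving out the ribosomal RNA rows gave 12 lower and 2 higher, and leaving out shControl replicates 1 and 3 gave 3 lower and 2 higher, with a single control library.

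**Figure D1:**
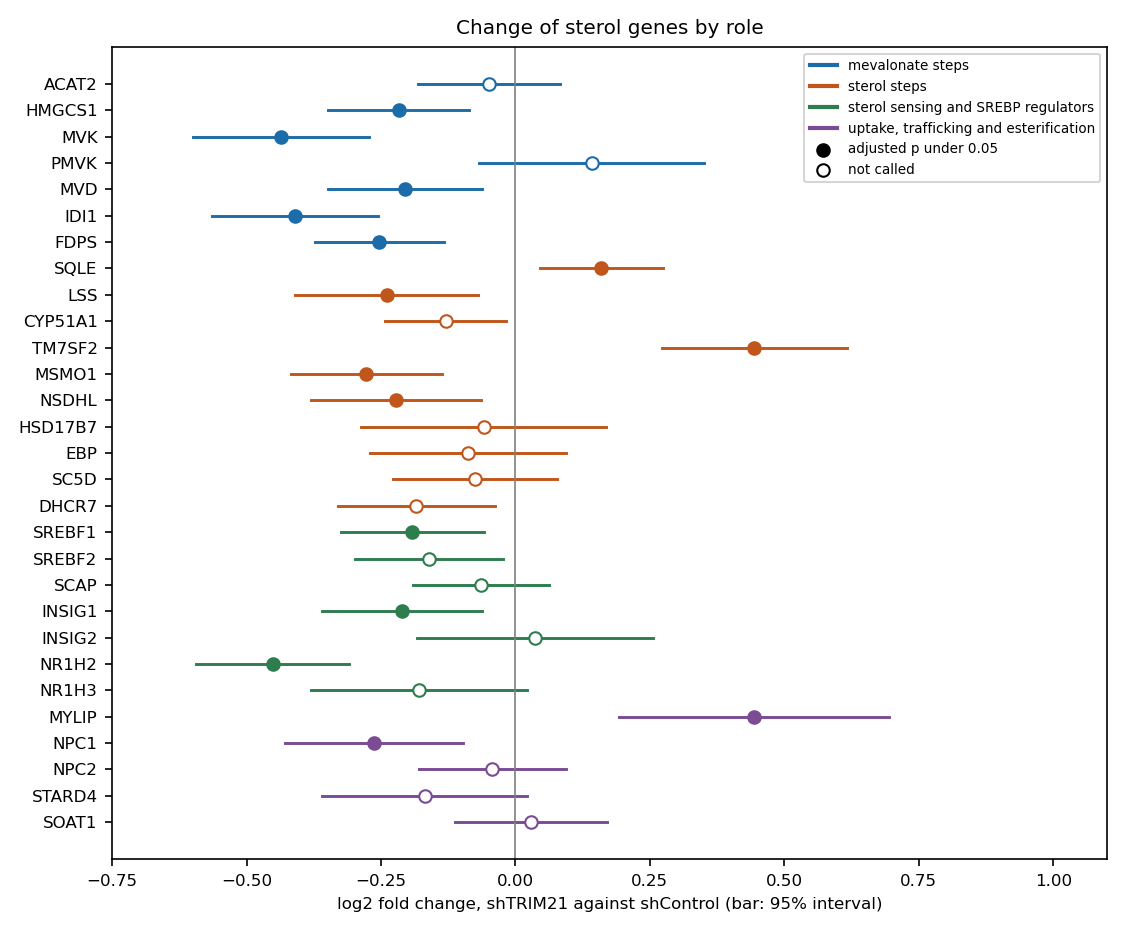
Log2 fold change of each of the 29 tested genes, shTRIM21 minus shControl, grouped by role, with 95% intervals from the fit; filled points have an adjusted p under 0.05. Most points sit left of 0, and TM7SF2, MYLIP and SQLE are the called points on the right.

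Per kilobase of exon, FDPS had the highest level in shControl (52.3 CPM per kb ± 1.17, SD, n = 3). SREBF1 (43.5 ± 3.99 CPM per kb), SREBF2 (39.8 ± 3.86) and DHCR7 (37.0 ± 3.55) came next, and SREBF2 differed from each of the other 2 by less than 1 SD. MVD followed at 32.3 ± 2.13 CPM per kb. The lowest levels, of which the first pair differ by less than the SD of NR1H3, belonged to INSIG2 (3.74 ± 0.0445 CPM per kb), NR1H3 (3.61 ± 0.175) and MYLIP (2.30 ± 0.248). Within the pairs of paralogs, INSIG1 stood at 16.4 ± 1.52 CPM per kb against 3.74 for INSIG2, and NR1H2 at 16.0 ± 0.388 against 3.61 for NR1H3. In each pair the gene with the higher level is the one called lower. The SE of the log2 difference was larger for INSIG2 (0.10) and NR1H3 (0.094) than for INSIG1 (0.070) and NR1H2 (0.067). Whether the genes of a pair differ in their change was not tested. Exon lengths are the union of a gene's exons in GENCODE release 29, and the annotation used for counting is not given in the sources used here.

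**Figure D2:**
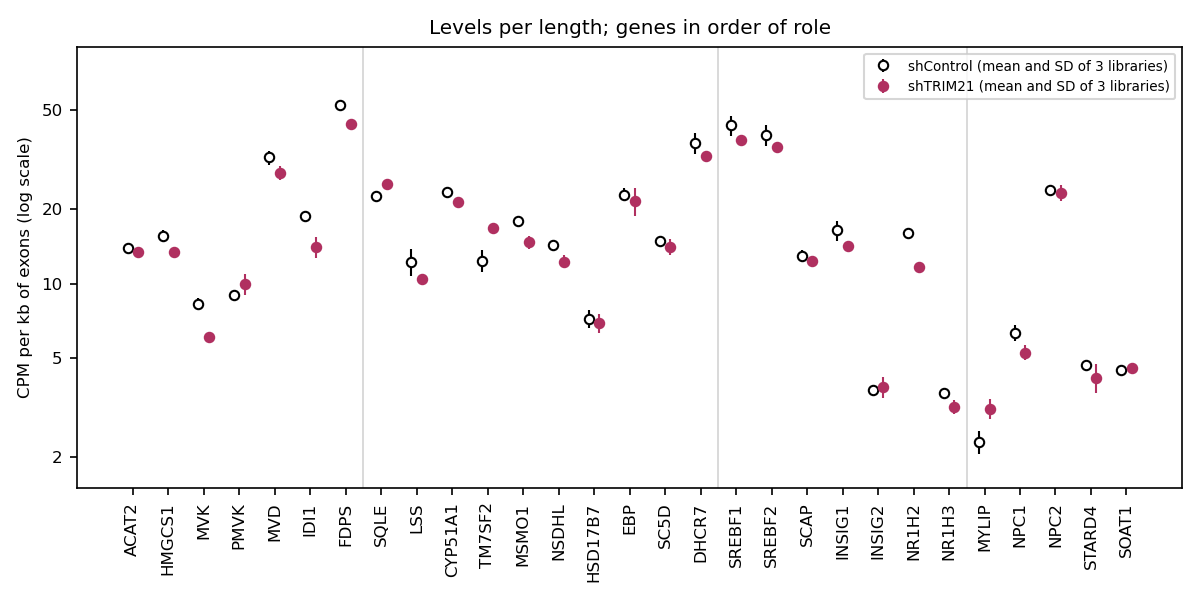
Level of each tested gene in CPM per kilobase of exon on a log axis, as mean and SD of the 3 libraries of each group, with open points for shControl and filled points for shTRIM21. FDPS stands at the top at 52.3 CPM per kb in shControl and MYLIP at the bottom at 2.30.

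The mevalonate kinase gene MVK, whose enzyme phosphorylates mevalonate, and the isomerase gene IDI1 fell by similar amounts, and their order changed with the library left out. The MVK level was 17.9, 18.1 and 17.9 CPM in shTRIM21 and 25.1, 22.8 and 25.1 CPM in shControl. Every shTRIM21 library was below every shControl library, and the level was 1.35-fold lower (log2 difference -0.44, SE 0.076, edgeR adjusted p = 0.00105). IDI1, whose enzyme isomerises the isoprenoid building block, had 55.8, 52.6 and 45.9 CPM in shTRIM21 against 72.2, 65.7 and 67.0 CPM. Here too the groups were apart, with a 1.33-fold lower level (-0.41, SE 0.072, edgeR adjusted p = 0.00109). FDPS, which joins the units to farnesyl diphosphate, had 75.5, 72.8 and 68.7 CPM against 88.4, 85.2 and 85.0 CPM. Its fall was smaller, at 0.25 on the log2 scale (SE 0.056, edgeR adjusted p = 0.00518), again without overlap. All 3 calls end with library sizes alone, and that of FDPS also without shControl replicates 1 and 3.

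HMGCS1, which forms HMG-CoA, had 49.3, 46.0 and 46.9 CPM in shTRIM21 and 57.4, 55.7 and 52.2 CPM in shControl. It fell by 0.22 (log2, SE 0.061, edgeR adjusted p = 0.0210). MVD, the decarboxylase of the route, had 54.1, 51.3 and 47.7 CPM against 62.7, 58.8 and 55.0 CPM. The shTRIM21 libraries lay below the shControl libraries, although the highest of the former and the lowest of the latter nearly met, and it fell by 0.21 (SE 0.067, edgeR adjusted p = 0.0425). HMGCS1 kept its call in 11 of 16 alternative settings and MVD in 9. The remaining genes were not called: the thiolase gene ACAT2 differed by -0.05 (95% interval -0.18 to 0.08) and PMVK, the kinase after MVK, by 0.14 (-0.07 to 0.35), the only positive value among the 7. Summed over the 7 genes, the level was 280 to 310 CPM in shTRIM21 and 341 to 363 CPM in shControl.

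The start regions of MVK, IDI1, INSIG1, TM7SF2 and NR1H2 are printed here as examples, since SREBP is known to act together with NF-Y at promoters of sterol genes. Each is 300 bases of GRCh38.p14 from RefSeq, from 250 bases before to 50 after an annotated start, 5′ to 3′ on the gene's strand. Capitals mark the SRE-like word CACNCCAC and the NF-Y word CCAAT on either strand, so that a match on the other strand reads as ATTGG. MVK (chr12:109573544-109573843, plus strand) holds 5 CCAAT words, 4 of them on the other strand. Of 3 IDI1 windows the one printed (chr10:1048837-1049136, minus strand) holds 3 CCAAT words, of which a pair overlaps head to head, and 1 SRE-like word. The window at chr10:1049070-1049369 holds 2 CCAAT words and 0 SRE-like words, and that at chr10:1056655-1056954 holds 0 of both. INSIG1 (chr7:155297628-155297927, plus strand), a negative regulator that fell, holds 1 of each. TM7SF2 (chr11:65111622-65111921, plus strand), which rose, holds 1 CCAAT word, and NR1H2 (chr19:50376207-50376506, plus strand), which fell, holds neither word in this window. FDPS and MSMO1, which kept their lower calls whichever single library was left out, are not printed. Their windows hold 3 and 4 CCAAT words, and each holds 0 SRE-like words.
MVK: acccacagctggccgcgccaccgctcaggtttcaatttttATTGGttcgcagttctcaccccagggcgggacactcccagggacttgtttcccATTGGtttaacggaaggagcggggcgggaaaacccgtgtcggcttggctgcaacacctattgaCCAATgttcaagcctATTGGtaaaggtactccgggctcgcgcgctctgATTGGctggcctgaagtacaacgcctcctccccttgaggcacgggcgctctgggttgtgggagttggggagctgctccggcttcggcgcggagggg
IDI1: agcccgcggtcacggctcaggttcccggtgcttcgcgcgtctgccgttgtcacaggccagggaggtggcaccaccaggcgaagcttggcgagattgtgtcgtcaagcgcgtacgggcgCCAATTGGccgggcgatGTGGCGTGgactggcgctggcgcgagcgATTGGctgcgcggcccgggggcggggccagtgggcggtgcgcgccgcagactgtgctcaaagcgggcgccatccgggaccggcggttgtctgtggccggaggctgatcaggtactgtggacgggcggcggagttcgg
INSIG1: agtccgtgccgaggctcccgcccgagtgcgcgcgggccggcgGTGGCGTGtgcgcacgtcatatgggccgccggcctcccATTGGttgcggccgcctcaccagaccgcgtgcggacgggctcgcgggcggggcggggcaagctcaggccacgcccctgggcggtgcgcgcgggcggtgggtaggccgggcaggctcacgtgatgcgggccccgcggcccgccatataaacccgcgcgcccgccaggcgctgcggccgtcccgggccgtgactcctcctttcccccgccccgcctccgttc
TM7SF2: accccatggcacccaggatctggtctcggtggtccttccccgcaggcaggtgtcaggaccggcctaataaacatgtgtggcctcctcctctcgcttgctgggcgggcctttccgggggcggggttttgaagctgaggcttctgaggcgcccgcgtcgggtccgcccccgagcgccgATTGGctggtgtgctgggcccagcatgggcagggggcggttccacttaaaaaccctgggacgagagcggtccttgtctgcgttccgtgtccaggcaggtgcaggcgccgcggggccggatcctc
NR1H2: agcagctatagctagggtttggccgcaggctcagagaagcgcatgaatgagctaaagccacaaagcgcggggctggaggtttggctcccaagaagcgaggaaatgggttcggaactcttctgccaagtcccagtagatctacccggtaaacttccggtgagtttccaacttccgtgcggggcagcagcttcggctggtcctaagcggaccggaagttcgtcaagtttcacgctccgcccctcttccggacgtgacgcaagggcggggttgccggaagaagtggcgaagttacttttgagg

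Of the 30 genes 27 had such windows, all but ACAT2, FDFT1 and SQLE. A gene was counted as holding a word if any of its windows did. CCAAT lay in 20 of 27 (74.1%), against 39.7% of 27305 genes in the table and 42.7% of the 11266 of them that were tested. The SRE-like word was in 4 (14.8%), IDI1, SC5D, SREBF2 and INSIG1, against 7.05% of all genes and 7.78% of tested genes. An E-box, CACGTG, was in 4 (14.8%) against 8.77% of all and 12.3% of tested genes, and a GC box, GGGCGG, in 26 (96.3%) against 48.3% of all and 75.7% of tested genes. CCAAT was present in 9 of 12 genes that fell, 2 of 2 that rose and 9 of 13 that were not called. By role it was in 5 of 6 mevalonate genes, 8 of 9 sterol-step genes, 3 of 7 regulators and 4 of 5 uptake genes. A match of letters is a description and no evidence of binding.

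**Figure D3:**
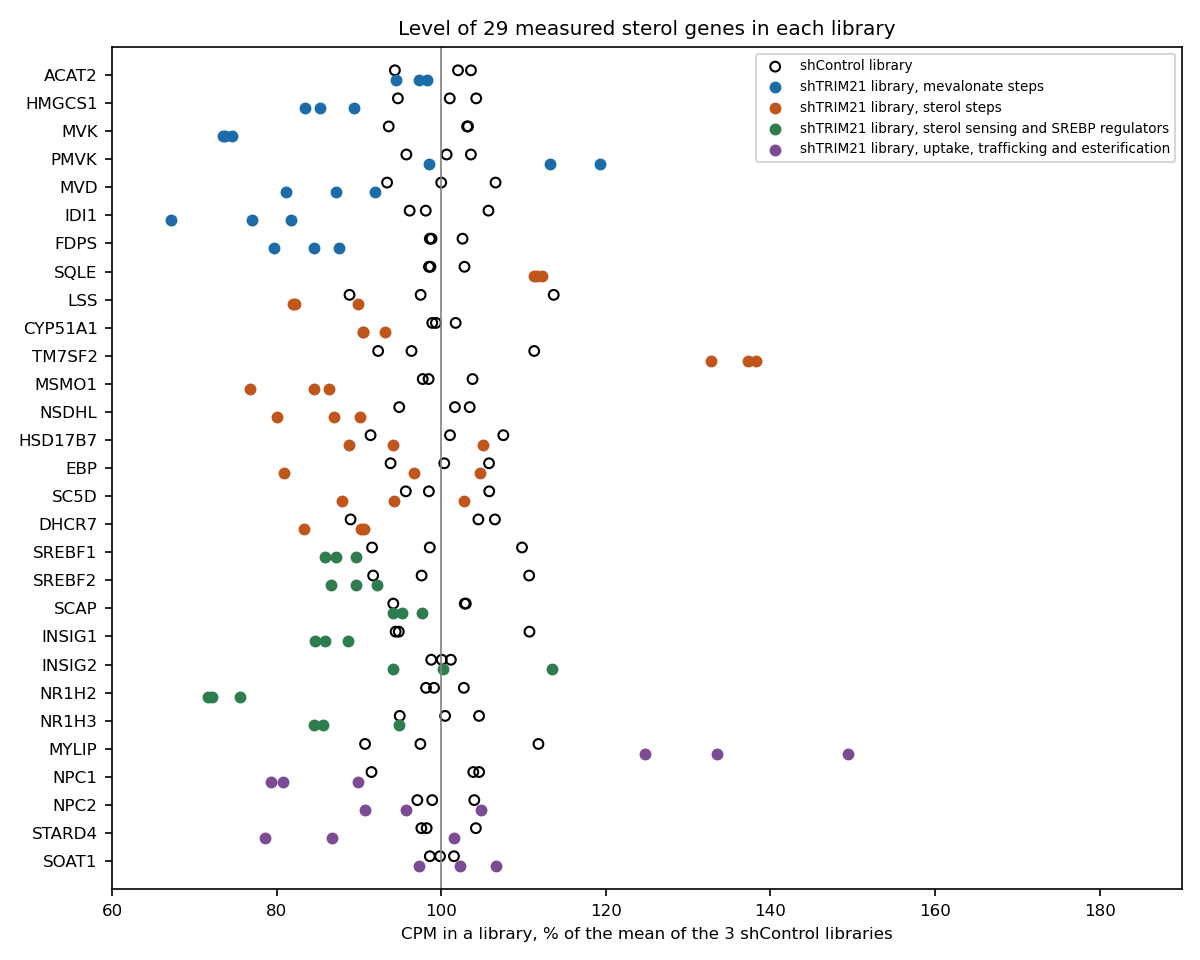
Level of each tested gene in each of the 6 libraries, as a percent of the gene's shControl mean in CPM. The shTRIM21 points of MVK, IDI1 and NR1H2 sit below all shControl points, and those of TM7SF2, MYLIP and SQLE above them.

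In the sterol steps the genes moved both ways. TM7SF2, a sterol C14-reductase, had 29.2, 28.3 and 29.5 CPM in shTRIM21 and 23.7, 19.7 and 20.5 CPM in shControl. Every shTRIM21 library was above every shControl library, and it rose 1.36-fold (log2 difference 0.44, SE 0.081, edgeR adjusted p = 0.00134). Its call was kept in 16 of 16 alternative settings, with an adjusted p of at most 0.00917. LBR, a nuclear membrane protein with the same reductase activity, had 97.4 ± 11.6 CPM against 106 ± 2.95 CPM (SD, n = 3) and was not called (-0.13, SE 0.072, edgeR adjusted p = 0.237). MSMO1, which acts at the next methyl-removal steps, had 39.0, 38.1 and 34.6 CPM against 46.9, 44.5 and 44.1 CPM. The groups were apart and it fell by 0.28 (SE 0.066, edgeR adjusted p = 0.00784), a call lost both when library sizes were used unscaled and when shControl replicates 1 and 3 were left out.

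SQLE, the squalene epoxidase, had 74.8, 74.5 and 75.1 CPM in shTRIM21 and 68.9, 66.1 and 66.0 CPM in shControl. The shTRIM21 libraries were all higher and close together, with a rise of 0.16 (log2, SE 0.054, edgeR adjusted p = 0.0465), but its call held in 5 of 16 alternatives only. LSS, which closes the ring to lanosterol, had 54.2, 54.1 and 59.2 CPM against 74.9, 64.3 and 58.6 CPM. The groups overlapped, with shTRIM21 replicate 3 above shControl replicate 3, and the fall of 0.24 (SE 0.080, edgeR adjusted p = 0.0447) was lost in 8 of 16 alternatives, among them leaving out shControl replicate 1, the highest library. NSDHL, a decarboxylating dehydrogenase of the sterol ring, fell by 0.22 (SE 0.074, edgeR adjusted p = 0.0459), from 28.5 ± 1.29 to 24.5 ± 1.46 CPM, and its call held in 8 of 16 alternatives.

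The demethylase gene CYP51A1 had 70.9 to 73.0 CPM in shTRIM21 and 77.5 to 79.7 CPM in shControl, apart by library but not called (-0.13, edgeR adjusted p = 0.0954). DHCR7, the last reductase of one branch, had 82.2 to 89.4 CPM against 87.8 to 105 CPM and was not called either (-0.18, edgeR adjusted p = 0.0709). It was called lower in 3 of 16 alternatives, among them without shControl replicate 2 (-0.26, adjusted p = 0.00766), and was -0.02 when shControl replicates 1 and 3 were left out. HSD17B7 (-0.06), EBP (-0.09) and SC5D (-0.07) had intervals that included 0, the widest from -0.29 to 0.17 for HSD17B7. FDFT1, the squalene synthase gene, was listed at 0 in all 6 libraries, so the first committed step to sterols has no value here.

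Among the regulators NR1H2, which encodes LXR beta, fell most. Its level was 25.32, 24.02 and 24.17 CPM in shTRIM21 and 32.9, 34.4 and 33.2 CPM in shControl. The groups were far apart relative to their spread, and it was 1.37-fold lower (log2 difference -0.45, SE 0.067, edgeR adjusted p = 0.000262), the smallest p of the 29 genes. Its call ended only with library sizes alone (-0.24, adjusted p = 0.325), and it overlaps no other counted gene. NR1H3, which encodes LXR alpha, had 12.02, 10.85 and 10.70 CPM against 13.25, 12.03 and 12.72 CPM. The difference of -0.18 (95% interval -0.38 to 0.02) was not called, and whether the paralogs differ in their change was not tested.

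INSIG1 had 44.9, 42.9 and 43.5 CPM in shTRIM21 and 56.0, 47.8 and 48.0 CPM in shControl, with shControl replicate 1 standing above the others. It fell by 0.21 (SE 0.070, edgeR adjusted p = 0.0438), a call lost without that library and kept in 9 of 16 alternatives. SREBF1, encoding SREBP1, had 168, 170 and 175 CPM against 214, 193 and 179 CPM. The lowest shControl library was just above the highest shTRIM21 library, and the fall of 0.19 (SE 0.062, edgeR adjusted p = 0.0413) held in 7 of 16 alternatives. SREBF2, encoding SREBP2, had 185, 197 and 191 CPM against 236, 196 and 208 CPM, with overlap, and was not called (-0.16, edgeR adjusted p = 0.0910). It was -0.08 without shControl replicate 1, and was called at -0.22 (adjusted p = 0.0248) without shControl replicate 2. SCAP (-0.06, 95% interval -0.19 to 0.06) and INSIG2 (0.04, -0.18 to 0.26) were not called.

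The SREBF genes carry the miR-33 microRNAs in their introns, which repress genes of cholesterol export. The mature sequences from RefSeq (GRCh38.p14) are shown because both share the seed UGCAUUG, bases 2 to 8, in capitals. They lie at chr17:17813897-17813916 on the minus strand in SREBF1 and at chr22:41900949-41900969 on the plus strand in SREBF2.
hsa-miR-33b-5p: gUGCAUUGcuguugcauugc
hsa-miR-33a-5p: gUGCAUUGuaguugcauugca
The MIR33B row was counted at 64, 71 and 82 in shTRIM21 and 110, 85 and 98 in shControl. The groups were apart, yet the difference of -0.48 (SE 0.20, edgeR adjusted p = 0.111) was not called. MIR33A had 0 counts in 5 libraries and 1 in shControl replicate 3. Reads of the host intron and of the microRNA precursor cannot be told apart in these libraries.

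In uptake and trafficking, MYLIP, an LXR-induced E3 ligase that sends lipoprotein receptors to degradation, had 9.33, 10.4 and 8.72 CPM in shTRIM21 and 6.81, 6.34 and 7.81 CPM in shControl. All shTRIM21 libraries were higher and it rose 1.36-fold (log2 difference 0.44, SE 0.12, edgeR adjusted p = 0.0153). Without shTRIM21 replicate 2, the highest library, it was 0.36 (adjusted p = 0.0983), and the call was also lost without shControl replicate 2. NPC1, which moves cholesterol out of lysosomes, had 25.9, 26.4 and 29.3 CPM against 33.9, 29.9 and 34.1 CPM. The groups nearly met, and it fell by 0.26 (SE 0.077, edgeR adjusted p = 0.0255), with its call kept in 9 of 16 alternatives. Its lysosomal partner NPC2 (-0.04, 95% interval -0.18 to 0.09), the sterol carrier gene STARD4 (-0.17, -0.36 to 0.02) and SOAT1, which esterifies cholesterol (0.03, -0.11 to 0.17), were not called. STARD4 was called without shTRIM21 replicate 1 (-0.28, adjusted p = 0.0396), and was -0.09 without shTRIM21 replicate 3.

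When 1 library at a time was left out, MVK, IDI1, FDPS, MSMO1, TM7SF2 and NR1H2 kept their calls in all 6 fits. HMGCS1 lost its call without shTRIM21 replicate 2 or shControl replicate 1, with log2 differences from -0.26 to -0.19 over the 6 fits. MVD lost it without shTRIM21 replicates 2 or 3 or shControl replicates 1 or 2 (-0.26 to -0.16). NPC1 lost it without shTRIM21 replicates 1 or 2 or shControl replicates 1 or 3 (-0.32 to -0.23). For LSS the same held without shTRIM21 replicates 1 or 2 or shControl replicates 1 or 2 (-0.32 to -0.14), and for NSDHL without shTRIM21 replicates 2 or 3 or shControl replicates 2 or 3 (-0.26 to -0.18). INSIG1 was no longer called without any of the shTRIM21 libraries or shControl replicate 1 (-0.25 to -0.13), SREBF1 without any library other than shControl replicate 3 (-0.26 to -0.12), MYLIP without shTRIM21 replicate 2 or shControl replicate 2 (0.36 to 0.52), and SQLE without any of the 6 (0.14 to 0.18). The sign of each of these 15 genes was the same in all 6 fits.

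**Figure D4:**
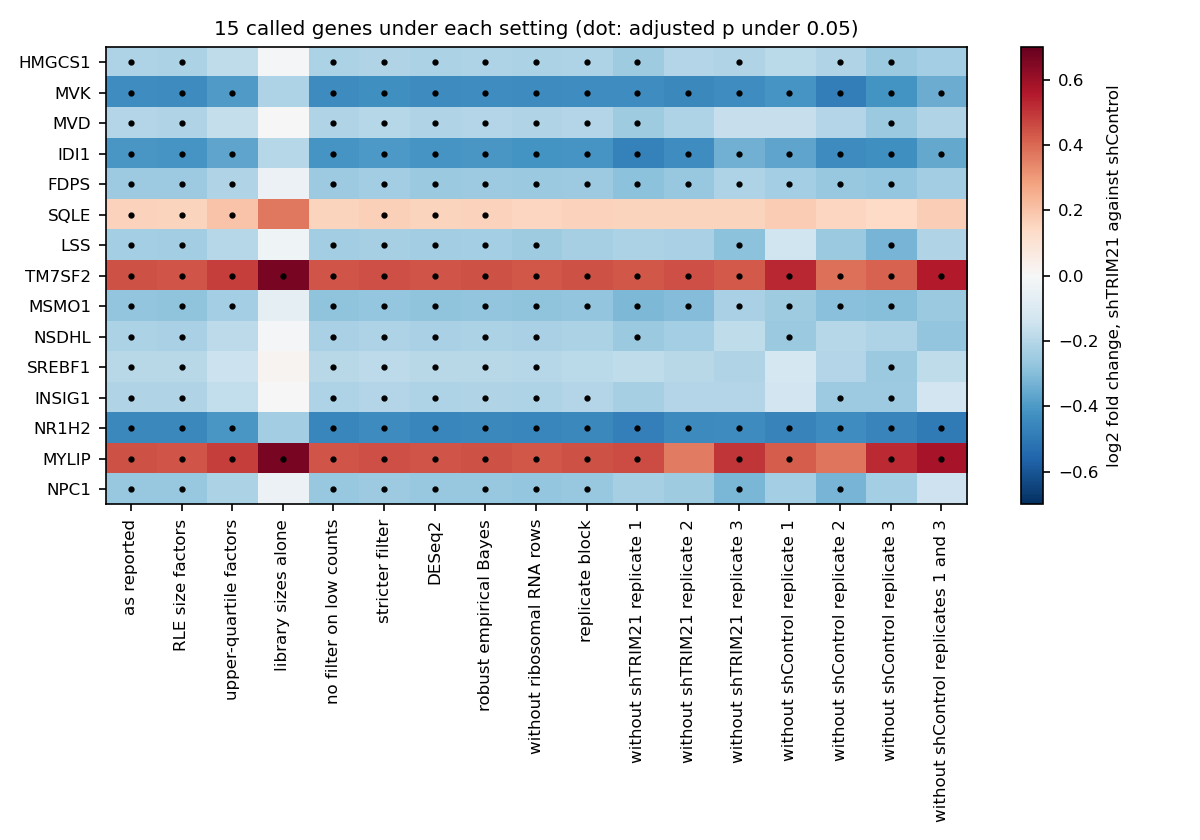
Log2 fold change of the 15 called genes (shTRIM21 minus shControl, colour) under each processing setting, with a dot where the adjusted p was under 0.05. TM7SF2 has a dot throughout, and the column for library sizes alone has dots for 2 of the 15 genes.

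The spans of some of these genes overlap those of counted neighbours, in part or in full, and whether their exons overlap was not examined. Reads may be shared where they do, the strand setting being not given in the sources used here. Of the 30 genes 13 overlap another counted gene. MVK (chr12:109573272-109598125) overlaps MMAB, a cobalamin enzyme gene on the other strand whose start is 602 bases from the outer edge of the MVK span. The MVK window printed above (chr12:109573544-109573843) lies inside that span, at another annotated start. MMAB also fell, from 12.8 to 9.88 CPM (-0.38, SE 0.097, edgeR adjusted p = 0.0132), a call lost without shControl replicate 1 (adjusted p = 0.0567). IDI1 (chr10:1039152-1056704) overlaps IDI2-AS1, which fell from 6.06 to 3.98 CPM (-0.61, SE 0.14, edgeR adjusted p = 0.00566), and WDR37, which was not called (0.10). SREBF2-AS1, which overlaps SREBF2, fell by 0.30 (SE 0.10, edgeR adjusted p = 0.0496) and lost its call in 5 of 6 fits without 1 library. ACAT2, not called, overlaps SOD2, a mitochondrial superoxide dismutase gene that rose by 0.32 (SE 0.064, edgeR adjusted p = 0.00275). TM7SF2 (chr11:65111872-65116230) and NR1H2 (chr19:50376457-50383388) overlap none. Overlapping genes of other called members were not called themselves: RMC1, over NPC1, differed by -0.20 (edgeR adjusted p = 0.0757) and RUSC1-AS1, over FDPS, by -0.24 (edgeR adjusted p = 0.0720), while RAI1 and MIR6777, over SREBF1, differed by 0.0030 and 0.29. Neighbours of the remaining members that were tested and not called were TCP1 and SOD2-OT1 (ACAT2), SNAI3-AS1 (MVD), MCM3AP-AS1 (LSS), CETN2 (NSDHL), ACP2 (NR1H3), ISCA2 and MIR4709 (NPC2) and STARD4-AS1, with values from -0.31 for SOD2-OT1 to 0.30 for SNAI3-AS1. CYP51A1-AS1, SNORD159, MIR4639 and SYNDIG1L were not tested.

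Other genes of sterol control were read from companion lists, whose counts stand beside 11.0% of all tested genes lower and 9.77% higher. Among the 11 genes of SREBP processing and sterol-regulated degradation in the endoplasmic reticulum that are reported here, 1 fell and 1 rose, shares near those of all genes. RNF145, an E3 ligase of that membrane, had 81.9, 87.3 and 93.1 CPM in shTRIM21 and 60.6, 61.0 and 61.7 CPM in shControl. The groups were well apart and it rose 1.43-fold (0.52, SE 0.059, edgeR adjusted p = 2.44e-05). C12orf49, needed for SREBP cleavage, fell by 0.21 (SE 0.066, edgeR adjusted p = 0.0313). Of the 6 LXR partners and targets reported here RXRB, a receptor partner, fell by 0.23 (SE 0.071, edgeR adjusted p = 0.0295), and 0 rose with edgeR or DESeq2, also at an unadjusted p under 0.05, where library sizes alone gave 1.

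The lipogenic genes did not move together: of 12, 3 rose, 4 fell and 5 were not called (median -0.10). ELOVL6, a fatty acid elongase, had 72.5, 70.7 and 71.6 CPM in shTRIM21 against 37.4, 33.7 and 35.6 CPM. It rose by 1.01 (SE 0.060, edgeR adjusted p = 5.19e-08). SLC25A1, the mitochondrial citrate carrier (0.51, edgeR adjusted p = 1.57e-05), and GPAM, which starts glycerolipid synthesis (0.46, edgeR adjusted p = 0.000331), also rose. SCD, the stearoyl-CoA desaturase, had 1095 ± 35.5 CPM against 1405 ± 116 CPM (SD, n = 3) and fell by 0.36 (SE 0.067, edgeR adjusted p = 0.00159). LPIN1 (-0.52, edgeR adjusted p = 0.00308), ACSS2, which makes acetyl-CoA from acetate (-0.34, edgeR adjusted p = 0.00604), and the desaturase gene FADS2 (-0.30, edgeR adjusted p = 0.0176) fell as well. In these libraries the acyl and sterol branches each held genes that rose and genes that fell. Of the sterol-step genes that rose, TM7SF2 and SQLE, the latter kept its call in 5 of 16 alternatives. Whether SREBP activity changed was not tested.

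In cholesterol transport and ester turnover, 2 of 17 tested genes rose and 1 fell (median 0.10), near the 9.77% and 11.0% over all genes. LIPA, the lysosomal lipase that frees cholesterol from its esters, rose from 27.1 ± 0.677 to 35.2 ± 1.32 CPM (0.38, SE 0.066, edgeR adjusted p = 0.00105), and OSBPL5, a lipid transfer protein, rose by 0.33 (edgeR adjusted p = 0.00496). NCEH1, a neutral cholesterol ester hydrolase, fell by 0.38 (SE 0.075, edgeR adjusted p = 0.00214). In the non-sterol isoprenoid branch 2 of 15 genes fell and 0 rose with edgeR or DESeq2, also at an unadjusted p under 0.05 (median -0.11), beside 11.0% of all genes lower: RABGGTA, a subunit that prenylates Rab proteins (-0.25, edgeR adjusted p = 0.0200), and COQ2, of coenzyme Q synthesis (-0.36, edgeR adjusted p = 0.0462), whose groups overlap and whose difference ran from -0.49 to -0.23 when 1 library was left out. HSD3B7, of bile acid synthesis, was the 1 gene called among 7 tested other sterol enzymes and binding proteins (0.53, SE 0.13, edgeR adjusted p = 0.0125), and its call was lost without shTRIM21 replicate 2. With library sizes alone none of the lower calls in these lists was kept. When 1 library at a time was left out, RNF145, ELOVL6, SLC25A1, GPAM, SCD, LPIN1, ACSS2, LIPA, OSBPL5 and NCEH1 kept their calls in all 6 fits, while RABGGTA lost its call in 3, FADS2 in 2, COQ2 and RXRB in 4 and C12orf49 in 5.

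**Figure D5:**
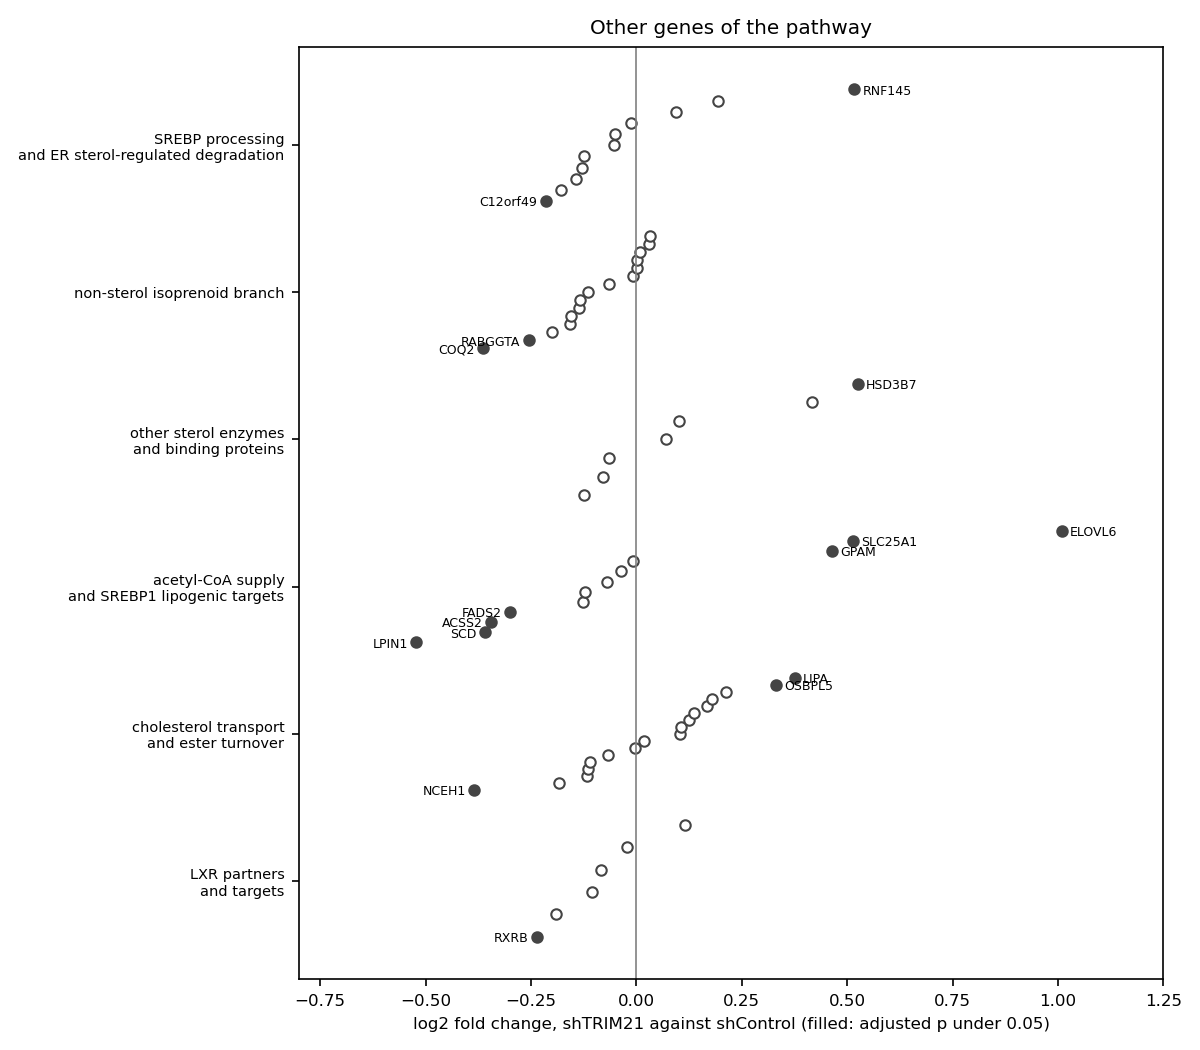
Log2 fold change of the tested genes of the 6 companion lists, shTRIM21 minus shControl, with called genes labelled. ELOVL6 lies farthest to the right at 1.01, and LPIN1 farthest to the left at -0.52.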

How the data were processed

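RNA from 6 libraries of RKO cells (3 shTRIM21, 3 shControl, grouped by title) was analysed. One label field names mouse tissue, while the organism, line and symbols are human. The authors deposited raw counts per gene symbol without normalization. TopHat2, edgeR 3.38.1, limma 3.52.2 and hg38 are named, per the submitters' processing notes, without a role. How reads were counted, with which annotation and strand setting, is not given in the sources used here. Of the 28278 rows 7790 were at 0 in every library.

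Counts were analysed in R 4.3.3 with edgeR 4.0.16: filterByExpr (minimum count 10, minimum total 15), TMM scaling, the quasi-likelihood F test with no covariate, and Benjamini-Hochberg adjustment over 15131 genes. An adjusted p under 0.05 was a call. Standard errors are the log2 difference over the root of F, and CPM uses TMM-scaled sizes. Precision rests on 3 libraries a group, which held 33499827 to 44466137 counts. No library was a duplicate of another by a chi-square comparison.

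The members and companion lists were chosen with earlier results of these data known. All members were named, plus called companion genes (up to 4 per direction and list, by p) and genes that overlap a member or start within 1000 bases on the other strand. Alternatives were other scalings (RLE, upper-quartile, library sizes alone), filters, DESeq2 1.42.0, robust empirical Bayes, removal of ribosomal RNA rows, a replicate block and left-out libraries. Positions and promoter windows come from RefSeq (GRCh38.p14), exon lengths from GENCODE release 29, and all 30 members matched by symbol. Some genes of the pathway are not reported here; companion list counts omit them.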

Additional observations from a re-analysis of the deposited data

How the results depend on the processing

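Of the 29 genes tested, 12 were lower and 3 higher. The lower count was 5 with upper-quartile factors, 0 with library sizes alone, and 3 when shControl replicates 1 and 3 were left out, where the lone control library is assumed to vary like the others. It ranged from 5 (without shTRIM21 replicate 2) to 10 when 1 library was left out, with 6 without shControl replicate 1, and the higher count ranged from 1 (without shTRIM21 replicate 2 or shControl replicate 2) to 2. With RLE factors, a stricter filter or robust empirical Bayes the counts were 12 and 3, and with DESeq2 13 and 3. MVK, IDI1 and NR1H2 kept their calls in 15 of 16 alternatives and TM7SF2 in 16, while SQLE kept its call in 5, SREBF1 in 7, and LSS and NSDHL in 8. The cause of these losses was not tested, and fits with libraries left out also rest on fewer libraries.

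With library sizes alone these log2 differences turned positive: ACAT2 0.17, MVD 0.0017, CYP51A1 0.082, HSD17B7 0.14, EBP 0.13, SC5D 0.14, DHCR7 0.040, SREBF1 0.018, SREBF2 0.057, SCAP 0.15, INSIG1 0.0042, NR1H3 0.0383, NPC2 0.17 and STARD4 0.044. The medians were then 0.044 for all 29 genes, 0.10 for the sterol steps, 0.0383 for the regulators, 0.17 for the uptake genes and -0.00810 for the mevalonate steps. Without shControl replicates 1 and 3, ACAT2 was 0.028 and SCAP 0.016. With 1 library left out, EBP ran from -0.17 (without shTRIM21 replicate 1) to 0.0088 (without shTRIM21 replicate 3), NPC2 and the uptake median from -0.10 to 0.0024, INSIG2 from -0.043 to 0.094 and SOAT1 from -0.0044 to 0.062 for the same libraries. ACAT2, SCAP, EBP, NPC2, INSIG2 and SOAT1 were called in no setting. By role, with upper-quartile factors 3 mevalonate, 1 sterol-step, 1 regulator and 0 uptake genes were lower, and with library sizes alone 0 in each. The median of the 29 genes lay between 0.13 and 0.21 below the median of all genes in all settings, a distance that a change of scaling can hardly move.

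No pairing by replicate number was seen: the correlations of same-numbered deviations were -0.013, 0.0057 and -0.080. In either group 0 of 3 libraries correlated best with their own number. With 3 libraries a group this check cannot show that the samples were unpaired. With the replicate number as a block 9 genes were lower and 2 higher, and the calls of SQLE, LSS, NSDHL and SREBF1 were not kept, which left 1 lower and 1 higher gene among the sterol steps.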
